A study of Mus musculus with 2 samples.

Results

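Noradrenergic neurons of the locus coeruleus and the large trigeminal sensory neurons beside it were compared gene by gene. The 2 kinds of cell were picked out of droplet libraries by 8 gate genes, 4 for each side. A barcode, which stands for 1 cell or nucleus, was noradrenergic when Dbh, Slc6a2, Slc18a2 and Th together reached 10 or more of every 10000 of its unique molecular identifiers (UMIs, counted RNA molecules) and 2 or more of the 4 were detected. It was trigeminal when Piezo2, Prph, Runx1 and Anxa2 together reached 10 per 10000 and both Piezo2 and Prph were detected. Of 3100 deposited barcodes, 3035 passed a filter of 300 or more detected genes and no more than 20% of UMIs from the mitochondrial genome. Among these, 106 were noradrenergic (12 in library 1 and 94 in library 2), 49 were trigeminal (11 and 38), and none met both gates. No barcode sequence was shared between the libraries.

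The locus coeruleus is the pontine nucleus that supplies the forebrain and spinal cord with noradrenaline. Its neurons make the transmitter from tyrosine with tyrosine hydroxylase, Ddc and Dbh, load it into vesicles with Slc18a2 and take it back up with Slc6a2. Along its edge lie the mesencephalic trigeminal neurons, the cell bodies of jaw-muscle proprioceptors, which are sensory neurons that sit inside the brain instead of in a ganglion. They carry the stretch-gated channel Piezo2, use glutamate, and send thick, fast axons to the jaw muscles.

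All mice were wild type, of the strain C57BL/6N, of both sexes and 3 to 4 weeks old, with no treatment. There were 2 libraries, batch 1 and batch 2, so batch and replicate are the same thing here, and the number of mice behind each was not given. The labels describe papain-dissociated, methanol-fixed cells as well as sorted nuclei without tying a library to either protocol. Median depth on the noradrenergic side was 83596.5 UMIs per barcode in library 1 and 6411.5 in library 2, and on the trigeminal side 60464 and 13062.5. Other neurons, by pan-neuronal markers, had medians of 12963.5 and 2572. By median, both sides were therefore deeper than the other neurons of the same library. In library 2, 23 of the 94 noradrenergic barcodes still had under 3000 UMIs. Whether the requirement that gate genes be detected favours deep barcodes was not tested.

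The gate genes chose the barcodes and are given as levels only. In CPM, the UMIs of a gene per 1000000 UMIs of its side and library, Slc6a2 was at 2893 in library 1 and 1974 in library 2 on the noradrenergic side and at 2.75 and 1.66 on the trigeminal side. Slc18a2 was at 3668 and 2698 against 9.62 and 8.31, Dbh at 1423 and 1111 against 2.75 and 1.66, and Th at 272 and 193 against 15.1 and 8.31. Piezo2 was at 1362 and 1521 CPM on the trigeminal side and at 4.05 and 10.7 on the noradrenergic side. Prph, the intermediate filament peripherin, was at 475 and 364 against 0 and 2.69, Runx1 at 436 and 407 against 0 and 2.69, and Anxa2 at 415 and 322 against 2.02 and 12.1. Oligodendrocytes of the same libraries, which should lack both, had Slc18a2 at 41.1 and 38.6 CPM and Piezo2 at 45.4 and 72.1, above the level of these genes on the opposite side.

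The gates left a wide gap in library 1 and a narrow one in library 2. The lowest noradrenergic barcode inside the gate had 43.1 gate UMIs per 10000 in library 1, and the highest outside with 2 gate genes had 7.2. In library 2 the values were 10.1 and 9.11. On the trigeminal side they were 20.4 and 1.92 in library 1 and 15.3 and 9.03 in library 2. The noradrenergic side of library 2 also held 23 barcodes under 3000 UMIs, and 10 barcodes there, 9 of them under 3000 UMIs, had oligodendrocyte markers (Mog, Mag, Mobp and Ermn) at 10 or more per 10000. No trigeminal barcode had either feature.

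**Figure D1:**
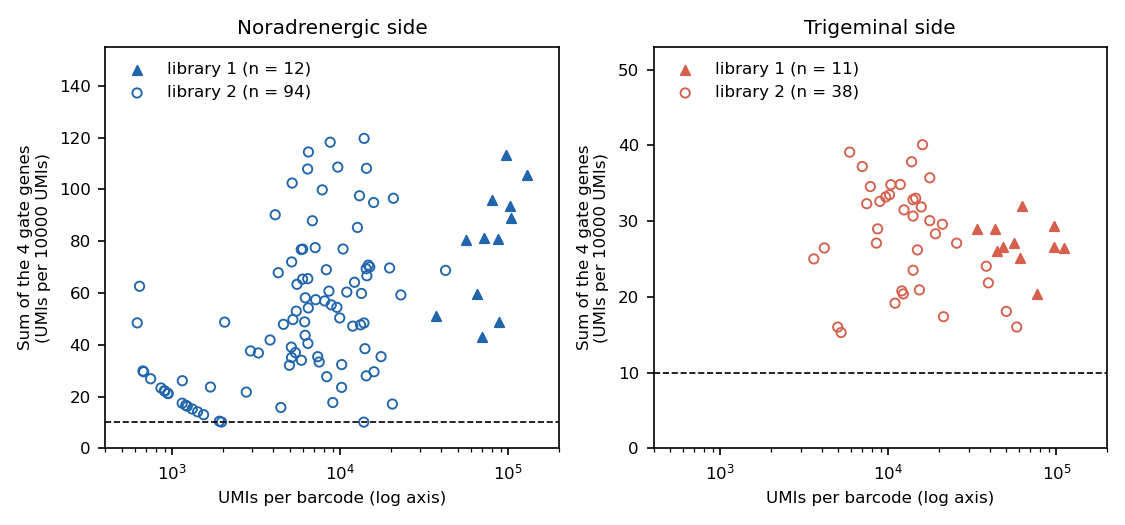
Sum of the 4 gate genes per 10000 UMIs (y axis) against UMIs per barcode (x axis, log) for the noradrenergic and the trigeminal barcodes. Filled triangles are library 1 and open circles library 2, and the dashed line is the threshold of 10. The 12 and 11 barcodes of library 1 lie at the deep end, and the shallow barcodes that trail toward the threshold are all noradrenergic barcodes of library 2.

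UMIs were summed over the barcodes of each side and library, giving 4 sums of 987938 and 744567 UMIs (noradrenergic, libraries 1 and 2) and 727701 and 601692 UMIs (trigeminal). The quasi-likelihood test of edgeR with library as a block was run on 8525 genes, the gate genes left out. A log2 fold below is positive where the noradrenergic side is higher, has its standard error (SE) behind it, and comes with a Benjamini-Hochberg adjusted p over all genes tested. At 0.05, 2494 genes were called (29.3% of those tested), 1259 higher in noradrenergic (14.8%) and 1235 higher in trigeminal neurons (14.5%), and 6031 (70.7%) were not called. All 2494 had the same sign in each library alone. The calls were made on these same libraries, so this is not a separate check of them. By 16-fold or more, 192 genes were higher on the noradrenergic side and 188 on the trigeminal side. At the other end, 2066 genes (24.2%) had a 95% interval of the fold that lay wholly within 2-fold either way.

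With n = 2 libraries, the spread behind each p-value is mostly pooled over genes, since the fit leaves 1 residual degree of freedom. The p-values measure only the spread between these samples, which may be technical, and nothing about spread between mice. The low-count filter let a gene that is silent on one side enter only when the other side was high, so a count of called genes within a list covers the members that passed and is a description. List counts below stand beside 14.8% and 14.5% of all genes tested, noradrenergic first. For DESeq2 the counts over all genes were 519 and 613 of 8525. Without the low-count filter they were 429 and 489 of 18484. For a gene with no UMI on one side only a bound of the fold is given, against 3 counts over both libraries. With 1 to 3 UMIs on the lower side, the pooled ratio is given with an interval for counting error alone. The calls of genes with no UMI on one side are those of edgeR: DESeq2 did not call 25 of the 28 such genes among those chosen for naming.

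**Figure D2:**
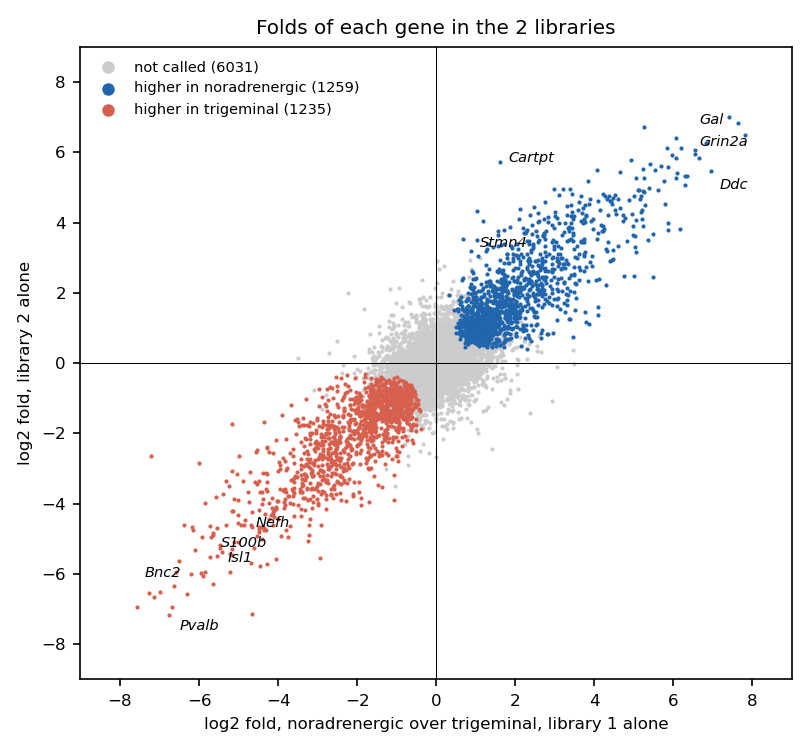
Log2 fold of noradrenergic over trigeminal for each of the 8525 genes in library 1 alone (x axis) and library 2 alone (y axis), with a prior count of 2 that pulls scarce genes toward 0. Blue, red and grey points are the 1259, 1235 and 6031 genes called higher on the noradrenergic side, higher on the trigeminal side and not called. Called genes, whose calls rest on these same libraries, lie only in the upper right and the lower left.

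Markers outside the gates are given as a description, since they were chosen with earlier results of these data known. Members with no UMI on one side, such as Gal and Phox2a, passed the low-count filter only through the other side. Of the 12 noradrenergic markers, 12 were higher on the noradrenergic side, and their summed level was 3755 and 2653 CPM there against 100 and 84.8 on the trigeminal side. Of the 12 mesencephalic trigeminal markers 9 were tested, 8 of them higher on the trigeminal side (summed level 3441 and 4816 CPM against 541 and 596). The exception among the tested markers was Whrn, a hair-cell and proprioceptor scaffold gene, at 96.2 and 114 CPM on the noradrenergic side and 61.8 and 29.9 on the trigeminal side (log2 fold 1.15, SE 0.34, with 0.58 and 1.80 in the single libraries). Runx3, the textbook factor of proprioceptors, had no UMI on either side, which allows up to 3 counts, while its relative Runx1 was one of the gate genes. Spp1 was at 0 on the noradrenergic side and at 12.4 and 178 CPM on the trigeminal side, and was not tested. Outside the gates, and within this chosen list, the trigeminal name goes with Pou4f1, Isl1, Pvalb, Etv1, Nefh, Ntrk3, Prrxl1 and Slc17a7, and not with Runx3 or Whrn.

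Transcription factors of the 2 lineages stood mostly on opposite sides. In the list for noradrenergic fate 7 of 15 members were tested, and 5 were higher in noradrenergic neurons, 1 was higher in trigeminal neurons and 1 was not called. DESeq2 called 3 of the 7 higher in noradrenergic neurons. The list's median log2 fold was 5.15 with absent genes at their bound, against 0.01 over all genes tested. In the list for sensory neurons 13 of 24 were tested, of which 10 were higher in trigeminal neurons and 2 in noradrenergic neurons (median -4.35). Tlx3 belongs to both lists.

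The paired homeobox gene Phox2a, which drives the noradrenergic programme, was read only on the noradrenergic side. It was at 91.1 and 65.8 CPM there with no UMI in the trigeminal sums, at least 35.5-fold higher (adjusted p = 0.000203). Tfap2b, an AP-2 factor of sympathetic and noradrenergic cells, was at 172 and 247 CPM against 0 and 1.66, a ratio of 272 (95% interval 48.4 to 10759). Lmx1b, a LIM homeobox factor, was at 57.7 and 87.3 CPM against 0 and 1.66 (ratio 93.6, 16.5 to 3727). The LIM-domain gene Lmo3 was at 162 and 160 CPM with no trigeminal UMI, at least 71.4-fold higher. Sox11 missed the threshold at 51.6 and 49.7 against 17.9 and 31.6 CPM (log2 fold 1.03, 95% interval 0.22 to 1.84).

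On the trigeminal side stood the sensory pair Isl1 and Pou4f1. Isl1 was at 117 and 113 CPM with no UMI in the noradrenergic sums, at least 66.5-fold higher (adjusted p = 7.52e-05). Pou4f1 (Brn3a) was at 126 and 110 CPM against 0 and 1.34, a ratio of 206 (36.4 to 8184). The ETS factor Etv1, required for proprioceptor circuits, was at 657 and 683 CPM against 47.6 and 20.2 (log2 fold -4.35, SE 0.33), and the helix-loop-helix factor Ebf1 at 859 and 848 against 37.5 and 13.4 (log2 fold -5.11, SE 0.35). Neither factor overlapped between the sides, a property not counted over all genes tested and no separate check of their calls. The noradrenergic level of both was lower in library 2, so that their log2 folds were -3.76 (Etv1) and -4.47 (Ebf1) in library 1 alone and -4.96 and -5.77 in library 2 alone.

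Further factors stood on one side or ran against their list. Tlx3, which helps to set the glutamatergic over the inhibitory fate in sensory relay neurons and is also needed for hindbrain noradrenergic neurons, was at 30.2 and 93.1 CPM on the trigeminal side and at 1.01 and 1.34 on the noradrenergic side (ratio 50.8, 13.6 to 427; log2 folds -3.21 and -4.62 in the single libraries). Eya1 and Eya2, transcriptional cofactors of sensory placodes, were higher on the noradrenergic side. Eya1 was at 23.3 and 94.0 CPM there against 0 and 1.66 (ratio 71.4, 12.5 to 2849), and Eya2 was at 223 and 271 CPM against 26.1 and 21.6 (log2 fold 3.30, SE 0.29). Bnc2, a basonuclin zinc-finger gene, and Lef1, the effector of Wnt signalling, were absent from the noradrenergic sums and at 389 and 241 CPM and 151 and 170 CPM on the trigeminal side, at least 186-fold and at least 92.1-fold higher. Meis2 and Klf7 were not called, with 95% intervals of the log2 fold of -0.42 to 0.54 and -0.62 to 0.37.

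The promoters of 1 such factor from each side are shown because the pair marks the 2 fates. Each is the 250 bases before the annotated start, from RefSeq on GRCm38.p6, with CCAAT or its reverse complement ATTGG in capitals. Phox2a lies on chr7:101818063-101818312, plus strand, and Isl1 on chr13:116309689-116309938, minus strand:
Phox2a: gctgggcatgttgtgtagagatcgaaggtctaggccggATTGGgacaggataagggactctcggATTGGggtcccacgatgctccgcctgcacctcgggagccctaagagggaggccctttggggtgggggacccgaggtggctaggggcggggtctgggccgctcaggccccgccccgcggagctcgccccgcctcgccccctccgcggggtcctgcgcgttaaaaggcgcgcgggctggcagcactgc
Isl1: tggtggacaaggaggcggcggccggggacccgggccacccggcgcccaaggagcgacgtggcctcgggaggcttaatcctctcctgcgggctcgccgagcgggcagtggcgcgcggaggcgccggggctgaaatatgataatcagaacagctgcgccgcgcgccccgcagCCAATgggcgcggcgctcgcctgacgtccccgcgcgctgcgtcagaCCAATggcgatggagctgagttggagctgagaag
Each window holds 2 matches. Over 27025 genes in the promoter table, 34.5% had a match on either strand, as did 35.4% of the 6721 genes tested that have a promoter there, 36.7% of the genes higher in noradrenergic and 33.9% of those higher in trigeminal neurons by 2-fold or more. The homeodomain core TAATTA was in 4.9%, 2.17%, 2.44% and 2.66% of the same 4 sets. A match is a run of letters in this window and is not a bound site.

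Genes of amine chemistry beyond the gates were mostly higher on the noradrenergic side. In the list for amine synthesis and breakdown 13 of 18 members were tested, and 9 were higher in noradrenergic neurons, 1 in trigeminal neurons and 3 were not called (median log2 fold 3.35). Ddc, the decarboxylase that makes dopamine, was at 500 and 270 CPM against 1.37 and 3.32 (ratio 178, 60.6 to 864). Its log2 folds in single libraries differed, at 6.96 in library 1 and 5.48 in library 2. Gch1, which starts the synthesis of tetrahydrobiopterin, the cofactor of tyrosine hydroxylase, was at 94.1 and 101 CPM against 19.2 and 11.6 (log2 fold 2.58, SE 0.34), and Qdpr, which recycles the cofactor, at 250 and 175 against 19.2 and 23.3 (log2 fold 3.27, SE 0.32).

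Breakdown was carried by Maoa, monoamine oxidase A, at 818 and 520 CPM on the noradrenergic side and 19.2 and 26.6 on the trigeminal side (log2 fold 4.81, SE 0.33). Cyb561, the electron carrier of amine vesicles, was at 637 and 517 against 57.7 and 41.6 (log2 fold 3.49, SE 0.25). Slc10a4, a vesicle membrane protein of aminergic and cholinergic neurons, was at 297 and 202 CPM with no trigeminal UMI, at least 113-fold higher. Aldh2, an aldehyde dehydrogenase of mitochondria, went the other way, at 11.1 and 5.37 CPM on the noradrenergic side and 64.6 and 78.1 on the trigeminal side (log2 fold -3.07, SE 0.41). Spr, a further enzyme of tetrahydrobiopterin synthesis, was not called (interval -1.10 to 0.50).

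Of 44 neuropeptide precursors in the list 9 were tested with edgeR, 6 higher in noradrenergic neurons, 1 in trigeminal neurons and 2 not called. DESeq2 called 2 of the 9 higher in noradrenergic neurons, and without the low-count filter 4 of 31 were. Galanin, which the series names in its title, stood on one side alone. Gal (chromosome 19, 3409915 to 3414544, minus strand, GRCm38) was at 587 CPM in library 1 and 240 in library 2, with no UMI among the trigeminal barcodes of either library. That is at least 194-fold higher (adjusted p = 3.42e-05). The level in library 1 was the higher one. The single-library log2 folds of 7.81 and 6.51 depend on the added prior count of 2, since there was no trigeminal UMI.

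Calca, the gene of calcitonin and CGRP, was at 231 and 80.6 CPM on the noradrenergic side and at 26.1 and 0 on the trigeminal side (log2 fold 3.60, SE 0.50, with 2.98 and 4.96 in the single libraries). Vgf, a granin-like peptide precursor, was at 86.0 and 99.4 CPM against 1.37 and 1.66 (ratio 61.0, 16.6 to 508). Cartpt was read mostly in library 2, at 14.2 and 140 CPM on the noradrenergic side and at 2.75 and 0 on the trigeminal side, a ratio of 45.3 (12.3 to 378) with log2 folds of 1.62 in library 1 and 5.73 in library 2. Neither Calca nor Cartpt was called by DESeq2 or without the low-count filter. Crh, the stress peptide corticotropin-releasing hormone, was not tested: its 30 UMIs on the noradrenergic side came from 3 of the 94 barcodes of library 2 (40.3 CPM), and other neurons were at 31.4 and 25.8 CPM. The peptide of the trigeminal side was Tac1, the substance P precursor, at 146 and 31.6 CPM against 1.01 and 0 (ratio 163, 28.7 to 6485), again with a gap between the libraries (log2 folds -5.39 and -3.72). Adcyap1, the PACAP gene, was not called and had opposite signs in the 2 libraries, with log2 folds of -1.12 and 0.97.

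Of 52 peptide receptor genes 12 were tested, 8 higher on the noradrenergic side and 3 on the trigeminal side. DESeq2 called 5 and 3 of them, and without the low-count filter 7 and 1 of 41 were called. Calcr, the calcitonin receptor, was at 244 and 164 CPM with no trigeminal UMI, at least 92.8-fold higher (adjusted p = 5.13e-05). The orexin receptor Hcrtr1 was at 99.2 and 57.8 CPM and the substance P receptor Tacr1 at 46.6 and 72.5, both with no trigeminal UMI, at least 36.1-fold and at least 25.6-fold higher. Oprm1, the mu opioid receptor, was at 124 and 48.4 CPM against 5.50 and 3.32 (log2 fold 4.20, SE 0.42), and Sstr2, a somatostatin receptor, at 49.6 and 37.6 against 0 and 1.66 (ratio 59.1, 10.3 to 2364).

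The trigeminal side had other receptors. Pth1r, the parathyroid hormone receptor, was at 323 and 474 CPM there and at 0 and 2.69 on the noradrenergic side (ratio 339, 93.3 to 2805; adjusted p = 2.67e-05). The neurokinin B receptor Tacr3 was at 92.1 and 49.9 CPM against 11.1 and 21.5 (log2 fold -2.20, SE 0.44). Its single-library log2 folds were -2.82 in library 1 and -1.17 in library 2. The ligand and receptor of substance P were thus read on opposite sides, Tac1 on the trigeminal and Tacr1 on the noradrenergic one. Cckar, a cholecystokinin receptor, was at 24.7 and 28.3 CPM against 2.02 and 0 (ratio 22.8, 5.86 to 196).

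Secretory granule genes were tested next to the peptides. Of 15 granin and processing genes tested, 6 were higher in noradrenergic neurons, 1 in trigeminal neurons and 8 were not called. Chgb, a granin, was at 696 and 809 CPM against 368 and 233 (log2 fold 1.30, SE 0.26), while its relative Chga stayed uncalled at 124 and 165 against 124 and 103 (interval -0.31 to 0.88). Cpe, the carboxypeptidase that trims peptides, was higher on the trigeminal side, at 735 and 588 against 269 and 361 CPM (log2 fold -1.12, SE 0.24). Without the low-count filter the list held 3 and 0 called genes, and the calls of Chgb and Cpe ended.

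**Figure D3:**
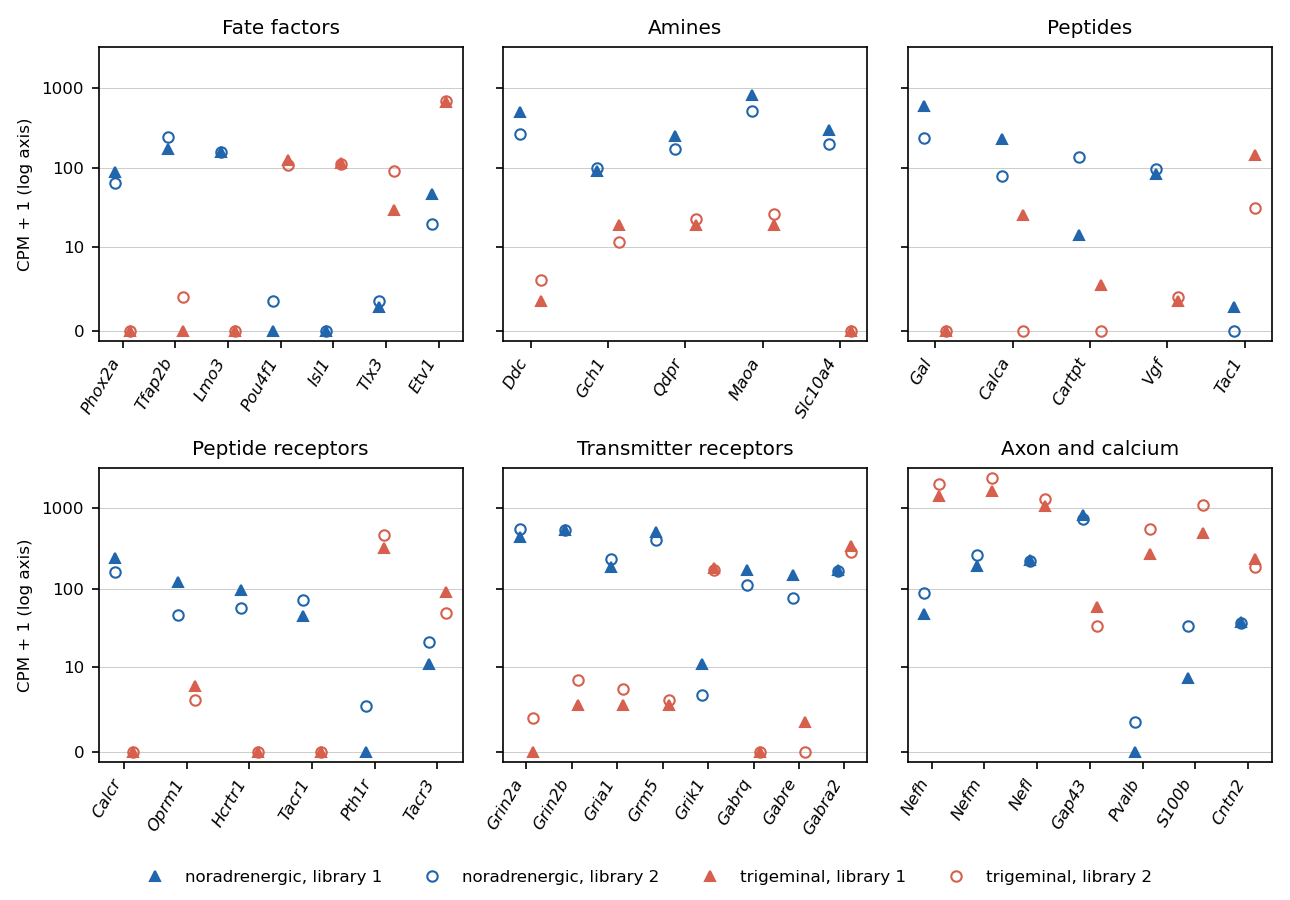
Level of selected genes in CPM (y axis, log scale after adding 1) in each of the 4 sums, grouped by role. Blue is noradrenergic and red trigeminal, filled triangles are library 1 and open circles library 2. In each gene drawn, both libraries of one side lie above both libraries of the other. All genes drawn were called from these same sums, so this is no separate check of the calls. The share of all genes tested with this property was not counted.

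Fast transmission told the cells apart by the vesicular glutamate transporters. Slc17a7 was at 187 and 362 CPM on the trigeminal side and at 5.06 and 0 on the noradrenergic side (log2 fold -6.45, SE 0.58), and Slc17a6 at 158 and 131 against 11.1 and 8.06 (log2 fold -3.93, SE 0.32). Of the GABA genes, Gad2, a GABA-making enzyme, was higher in noradrenergic neurons at 48.6 and 33.6 CPM against 0 and 4.99 (ratio 18.7, 6.14 to 92.6). Gad1 was at 2.02 and 1.34 CPM on the noradrenergic side and the vesicular GABA transporter Slc32a1 had no UMI on either, so Gad2 was read without the vesicle loader. The log2 folds of Gad2 were 4.29 and 2.21 in the single libraries, and those of Slc17a7 -4.66 and -7.14.

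Of 16 AMPA, kainate and NMDA receptor genes tested, 8 were higher in noradrenergic neurons, 3 in trigeminal neurons and 5 were not called. The NMDA receptor subunits Grin2a and Grin2b were read almost wholly on the noradrenergic side. Grin2a was at 439 and 561 CPM against 0 and 1.66 (ratio 654, 117 to 25852), and Grin2b at 543 and 548 against 2.75 and 6.65 (log2 fold 6.82, SE 0.38). The obligatory subunit Grin1 did not follow them: it was at 77.9 and 80.6 CPM on the noradrenergic side and 151 and 196 on the trigeminal side (log2 fold -1.16, SE 0.24), and its call ended with DESeq2 and without the low-count filter.

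Among AMPA receptor subunits Gria1 was at 187 and 238 CPM against 2.75 and 4.99 (log2 fold 5.70, SE 0.39). Gria2 was higher on the noradrenergic side by a log2 fold of 1.36 (SE 0.22). Gria3 and Gria4 were not called (intervals -0.38 to 0.62 and -0.27 to 0.66). The kainate receptor subunit Grik1 belonged to the trigeminal side, at 183 and 173 CPM against 11.1 and 4.03 (log2 fold -4.52, SE 0.37). Of 7 metabotropic receptor genes tested, 2 were higher in noradrenergic neurons, 3 in trigeminal neurons and 2 were not called. Grm5, which couples to calcium release, was at 507 and 410 CPM against 2.75 and 3.32 (log2 fold 7.14, SE 0.38) and the presynaptic Grm7 at 1833 and 2489 against 228 and 211 (log2 fold 3.23, SE 0.23), while Grm3 and Grm4 were higher on the trigeminal side (log2 folds -2.94 and -3.08). Grm4 had log2 folds of -3.56 and -2.03 in the single libraries.

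Inhibitory receptor subunits were called on both sides. Of 17 GABA and glycine receptor genes tested, 8 were higher in noradrenergic neurons, 5 in trigeminal neurons (2 with DESeq2) and 4 were not called. The theta subunit Gabrq was at 175 and 111 CPM with no trigeminal UMI, at least 65.5-fold higher, and the epsilon subunit Gabre at 150 and 77.9 against 1.37 and 0 (ratio 158, 28.1 to 6273). These 2 genes and Gabra3 (171 and 91.3 against 6.87 and 3.32 CPM) are neighbours on the X chromosome, at 72255999 to 72842602 in GRCm38. Gabra2 was higher on the trigeminal side at 344 and 288 against 175 and 167 CPM (log2 fold -0.93, SE 0.22), as was Gabrb2 at 28.9 and 53.2 against 6.07 and 1.34 (log2 fold -3.28, SE 0.61; -1.89 and -3.84 in the single libraries). The receptor scaffold gephyrin, Gphn, was at 2317 and 2407 against 2478 and 2043 CPM, an interval of -0.40 to 0.44.

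Metabotropic GABA-B receptors need both of their subunits, and the subunits went opposite ways. Gabbr1 was at 382 and 561 CPM on the noradrenergic side and 181 and 261 on the trigeminal side (log2 fold 1.04, SE 0.21). Gabbr2 was at 69.8 and 37.6 against 341 and 317 CPM (log2 fold -2.68, SE 0.28). Receptors for amines and acetylcholine also split, 6 higher in noradrenergic and 7 in trigeminal neurons of 14 tested. Adra2a, the autoreceptor of noradrenergic neurons, was at 42.5 and 44.3 CPM against 2.75 and 0 (ratio 28.8, 7.69 to 242), and the nicotinic subunit Chrna7 at 55.7 and 67.2 against 2.75 and 1.66 (ratio 26.9, 8.94 to 132). The muscarinic receptors Chrm2 (46.7 and 93.1 against 4.05 and 1.34 CPM) and Chrm3 (146 and 118 against 17.2 and 0) were higher on the trigeminal side, as were the serotonin receptors Htr1d, Htr2a and Htr7 (log2 folds -3.68, -3.10 and -3.57). The single-library log2 folds of Chrm2 were -2.93 and -4.62, and those of Chrm3 -2.94 and -5.54.

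Voltage-gated channels were called on both sides. Of 30 voltage-gated potassium channel genes tested, 18 were higher in trigeminal neurons, 6 in noradrenergic neurons and 6 were not called (median log2 fold -1.04). Of 19 calcium channel genes, 12 were higher in noradrenergic neurons, 2 in trigeminal neurons and 5 were not called (median 1.23). Without the low-count filter the 18 potassium channel genes became 10 and the 12 calcium channel genes 7. Of 13 genes of sodium channels and their FGF partners tested, 5 were higher in noradrenergic neurons and 6 in trigeminal neurons.

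Kv1 subunits were higher on the trigeminal side. Kcna1 (63.2 and 175 CPM against 13.2 and 22.8; log2 fold -2.68, SE 0.32) and Kcna2 (285 and 284 against 44.5 and 30.9; log2 fold -2.95, SE 0.27), which sit beside the nodes of myelinated axons, went with their cytoplasmic partner Kcnab2 at 421 and 457 against 53.7 and 55.1 (log2 fold -3.05, SE 0.24). Kcnq3, an M-current subunit, was not called (interval -0.43 to 0.59). Kcns1, a silent modifier subunit, was at 45.4 and 53.2 CPM with no noradrenergic UMI, at least 28.2-fold higher.

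Hcn2, a pacemaker channel opened by hyperpolarization, was at 104 and 146 CPM on the trigeminal side and at 31.4 and 44.3 on the noradrenergic side (log2 fold -1.77, SE 0.26). Pex5l, a trafficking protein of such channels, was at 275 and 344 against 24.3 and 30.9 CPM (log2 fold -3.53, SE 0.26). The sodium channels Scn1a (log2 fold -2.81, SE 0.26), Scn8a (-1.49, SE 0.22) and Scn9a (-3.50, SE 0.33) were also higher there. Scn4b, the beta subunit linked to resurgent current, was at 106 and 105 CPM with no noradrenergic UMI, at least 60.8-fold higher.

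Other potassium channels differed by member, the SK channels Kcnn2 and Kcnn3 being higher on the noradrenergic side and the large-conductance calcium-activated channel Kcnma1 not called (log2 fold 0.37, SE 0.21). Kcnn3, a calcium-activated SK potassium channel, was at 179 and 168 CPM against 2.75 and 1.66 (ratio 77.2, 26.2 to 377), and Kcnn2 at 222 and 247 against 53.6 and 56.5 (log2 fold 2.04, SE 0.25). The acid-sensitive leak channel Kcnk9 was at 311 and 301 against 2.75 and 1.66 (ratio 136, 46.2 to 661), and the G-protein-gated channel Kcnj6 at 123 and 126 against 5.50 and 4.99 (log2 fold 4.47, SE 0.38). Kcnn2, Kcnn3, Kcnk9 and Kcnj6, all of them called, were each higher in both noradrenergic sums than in either trigeminal sum. The calls rest on the same sums, so this separation is no separate check of them. The share of all genes tested that separate in this way was not counted. The leak channel Kcnk1 was higher on the trigeminal side, at 102 and 196 against 16.2 and 17.5 CPM (log2 fold -3.10, SE 0.32).

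The pore subunits of L-type and R-type calcium channels, Cacna1c and Cacna1e, were at 497 and 576 CPM against 72.8 and 68.1 (log2 fold 2.87, SE 0.24) and at 609 and 664 against 33.0 and 11.6 (log2 fold 4.77, SE 0.37, with 4.06 and 5.50 in the single libraries). The P/Q-type and N-type pores Cacna1a and Cacna1b, which open at nerve terminals, were not called (intervals -0.39 to 0.53 and -0.13 to 0.87). Fgf13, a cytoplasmic partner of sodium channels, was at 1341 and 1256 against 109 and 151 CPM (log2 fold 3.29, SE 0.24), whereas its relative Fgf12 was higher on the trigeminal side (-1.56, SE 0.20).

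**Figure D4:**
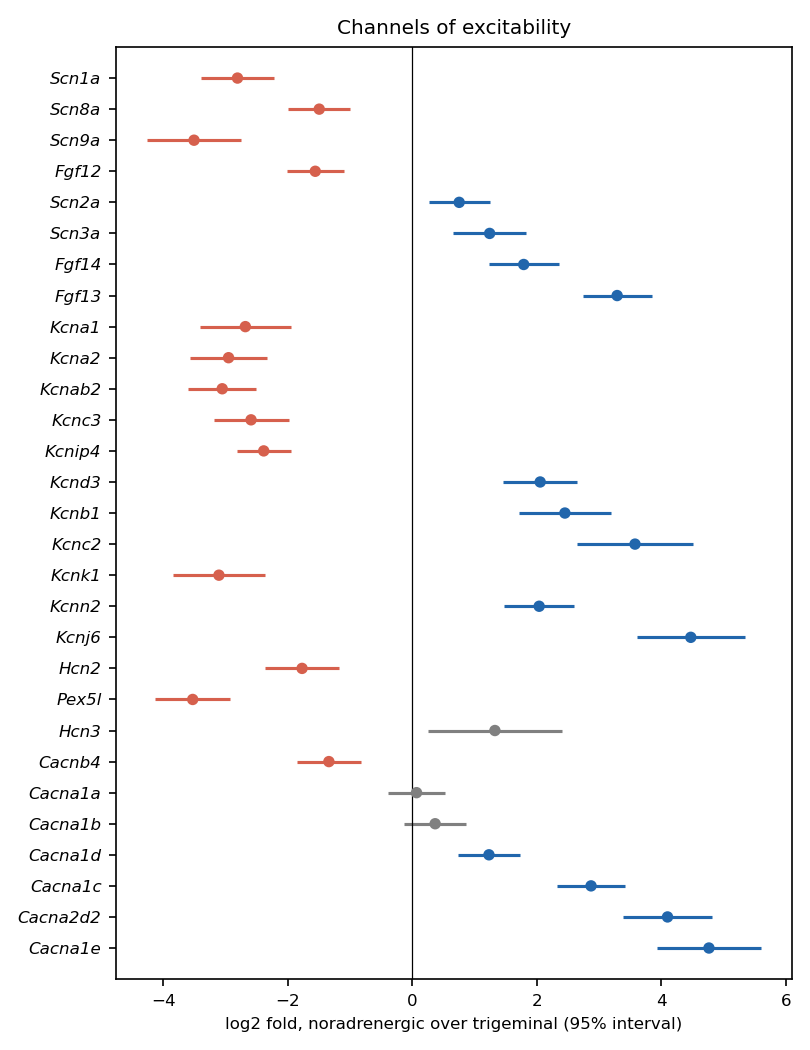
Log2 fold of noradrenergic over trigeminal (x axis) with its 95% interval for channel genes and their partners, grouped as sodium, potassium, HCN and calcium channels. Blue is higher in noradrenergic, red higher in trigeminal, grey not called. Kv1, Hcn2 and Pex5l lie to the left of 0, SK, Kcnj6, Cacna1c and Cacna1e to the right, and Cacna1a and Cacna1b on it.

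Mechanosensation beyond the gate gene Piezo2 did not follow the trigeminal side as a group. Of 16 genes tested, 4 were higher in trigeminal neurons (25%), 3 in noradrenergic neurons (18.8%) and 9 were not called. Over all genes tested the shares were 14.5% and 14.8%. DESeq2 called 1 gene on either side. Piezo1 had no UMI on either side. Asic2, an acid-sensing channel, was at 2230 and 2658 CPM on the trigeminal side and 1683 and 1802 on the noradrenergic side and missed the threshold (log2 fold -0.53, SE 0.18, adjusted p = 0.0564). Asic4 was higher on the trigeminal side at 52.2 and 49.9 against 4.05 and 5.37 CPM (log2 fold -3.46, SE 0.43). Trpm3, a heat-activated channel of sensory ganglia, was higher on the noradrenergic side at 187 and 111 against 12.4 and 14.96 CPM (log2 fold 3.40, SE 0.35).

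The axon skeleton carried the large-fibre genes on the trigeminal side. Of 31 cytoskeletal genes tested 10 were higher there (32.3%), 5 in noradrenergic neurons (16.1%), and 16 were not called. The noradrenergic share was near the 14.8% of all genes tested. The neurofilament subunits Nefh, Nefm and Nefl, which set axon calibre, were at 1428 and 1969, 1632 and 2398, and 1072 and 1301 CPM on the trigeminal side. On the noradrenergic side they were at 48.6 and 88.6, 192 and 266, and 234 and 222. Their log2 folds were -4.71 (SE 0.24), -3.17 (SE 0.20) and -2.42 (SE 0.22). Map1a, a microtubule-associated protein, was at 1630 and 1650 against 215 and 263 CPM (log2 fold -2.83, SE 0.21).

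Gap43 and Stmn1 ran the other way. Gap43, a growth-cone protein, was at 833 and 745 CPM on the noradrenergic side and 60.5 and 34.9 on the trigeminal side (log2 fold 4.01, SE 0.27), and Stmn1, a microtubule destabilizer, at 380 and 238 against 133 and 51.5 (log2 fold 1.76, SE 0.26). Tau (Mapt), Tubb3 and Actb were not called, with intervals of -0.28 to 0.64, -0.93 to 0.32 and -0.48 to 0.59.

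Genes of the node and the contact with myelin were higher on the trigeminal side in 7 of 18 cases, in noradrenergic neurons in 4 (2 with DESeq2), and not called in 7. Cntn2 and Cntnap1, adhesion proteins of the axon beside the node, were at 241 and 190 against 39.5 and 37.6 CPM (log2 fold -2.52, SE 0.26) and at 92.1 and 94.7 against 24.3 and 22.8 (log2 fold -2.02, SE 0.29). Nrg1, the axonal signal that sets myelin thickness, was at 2472 and 2382 against 747 and 377 CPM (log2 fold -2.23, SE 0.26). The anchors of the initial segment shared by all neurons, Ank3 and Nfasc, were not called (intervals -0.05 to 0.92 and -0.26 to 0.69).

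The calcium-binding proteins Pvalb and S100b were higher on the trigeminal side. Parvalbumin, Pvalb (chromosome 15, 78191114 to 78206400, minus strand), was at 275 and 563 CPM against 0 and 1.34 (ratio 702, 126 to 27796; adjusted p = 2.59e-05). S100b was at 491 and 1115 against 7.09 and 34.9 CPM (log2 fold -5.42, SE 0.32). S100b is also a glial gene. Astrocyte markers summed to 151 and 74.8 CPM on the trigeminal side and 93.1 and 79.2 on the noradrenergic side, and the 6 markers of Schwann or satellite glia to 35.7 and 39.9 against 11.1 and 12.1. The part of glial RNA in the S100b difference was not tested. Of the 18 buffer and store genes tested 9 were higher in trigeminal and 3 in noradrenergic neurons, the latter including the neuronal calcium sensor Hpcal4 at 223 and 136 against 5.50 and 4.99 CPM (log2 fold 5.02, SE 0.38).

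Genes of vesicle release were called in either direction or not at all. Of 37 vesicle genes tested, 11 were higher in noradrenergic neurons (29.7%), 7 in trigeminal neurons (18.9%) and 19 were not called (51.4%). Over all genes tested 70.7% were not called. Those not called included Snap25 (interval -0.57 to 0.27), Syn1 (-0.43 to 0.54) and Syp (-0.20 to 0.76). Syt2, a calcium sensor of fast synchronous release (503 and 530 against 45.5 and 28.2 CPM; log2 fold -3.84, SE 0.28), and Sv2b, Vamp1 and Cplx1 (651 and 710 against 157 and 187; log2 fold -2.03, SE 0.21), were higher on the trigeminal side. Noradrenergic neurons were higher in Syt1 (3634 and 3562 against 1755 and 1469 CPM; log2 fold 1.12, SE 0.18), Vamp2 (1.62, SE 0.23) and Rab3c (2.42, SE 0.24). Sv2b had the wider gap between libraries, with log2 folds of -5.24 and -3.49. Each side was thus higher in another member of the synaptotagmin and synaptobrevin families.

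Trophic receptors and guidance genes were called on both sides. Ntrk2, the BDNF receptor, was higher on the noradrenergic side at 518 and 489 against 57.7 and 111 CPM (log2 fold 2.58, SE 0.30), and Ntrk3, the receptor of the muscle-spindle factor NT-3, on the trigeminal side at 529 and 766 against 341 and 359 (log2 fold -0.91, SE 0.22). Gfra1, a GDNF co-receptor, was at 180 and 208 CPM on the trigeminal side and 0 and 5.37 on the noradrenergic side (log2 fold -6.32, SE 0.55, with -6.16 and -4.76 in the single libraries). The shared signalling partner Ret was read at a low level on both sides (33.4 and 10.7 against 22.0 and 13.3 CPM) and was not called (interval -0.74 to 1.25). Sorcs1, a sorting receptor, was at 876 and 1062 against 8.25 and 23.3 CPM (log2 fold 5.95, SE 0.34). The Slit receptors split, Robo1 higher in noradrenergic (1.61, SE 0.22) and Robo2 in trigeminal neurons (-3.63, SE 0.29), and their ligand Slit2 was at 978 and 982 CPM on the trigeminal side against 69.8 and 120. The netrin receptor Dcc was higher on the noradrenergic side (3.64, SE 0.32).

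Of 42 nuclear genes of the respiratory chain and ATP synthase 15 were higher in trigeminal neurons, 0 in noradrenergic neurons, and 27 were not called (median log2 fold -0.76). At an unadjusted p under 0.05 the counts were 23 and 0 with edgeR and 12 and 0 with DESeq2. Cox6c was at 334 and 414 against 139 and 159 CPM (log2 fold -1.37, SE 0.22) and Cox4i1 at 367 and 620 against 203 and 259 (log2 fold -1.10, SE 0.22). The 13 protein-coding genes of the mitochondrial genome differed less: 0 were called by edgeR or DESeq2, and 1 was higher in trigeminal neurons at an unadjusted p under 0.05 by either tool, with mt-Co1 at 8346 and 15394 CPM against 8611 and 15908 (interval -0.44 to 0.26). With DESeq2 2 of the 42 were called and without the low-count filter 1 was, so the size of this group depends on the test. Its median was between -0.70 and -0.79 in those fits and without TMM normalization, all of them made on the same sums. In the single libraries the median differed, at -0.41 in library 1 and -1.03 in library 2.

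Stress-response genes, nuclear RNAs and glial markers were read on both sides. Of 16 immediate early and stress genes tested 5 were higher in noradrenergic neurons with edgeR and 2 with DESeq2, and 0 in trigeminal neurons with either, also at an unadjusted p under 0.05. Nr4a3 was at 191 and 274 against 22.0 and 14.96 CPM (log2 fold 3.55, SE 0.33). Fos and Jun were not called (intervals -0.38 to 0.75 and -0.36 to 0.86). Atf3 was not called in the main fit, with log2 folds of -2.72 and 0.29 in the single libraries. It was called higher in trigeminal neurons with 3 gate genes required, at most 10% mitochondrial UMIs, or barcodes under 3000 UMIs left out. The nuclear RNAs Malat1 (20856 and 18962 against 7803 and 12218 CPM; log2 fold -1.07, SE 0.21) and Miat (-1.71, SE 0.22) were higher on the trigeminal side, and Meg3 was not called (-0.08 to 0.68). The 10 oligodendrocyte markers summed to 319 and 606 CPM on the noradrenergic side and 94.8 and 111 on the trigeminal side, against 43600 and 28240 in oligodendrocytes. Mbp, myelin basic protein, was called higher on the noradrenergic side (log2 fold 1.09). The call of Mbp ended without the oligodendrocyte-marked barcodes (adjusted p = 0.23, against 0.039 with them and 0.10 to 0.45 over the 7 settings that ended it), and the part of myelin RNA in any other gene's fold was not tested.

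The 15 genes highest by fold on each side, at 50 CPM or more in both libraries, were chosen by their folds and are given as a description; many belong to the lists above. On the noradrenergic side they included Gal, Slc10a4, Calcr, Lmo3, Gabrq, Asb4, Pde11a, Rnf165, Pgr15l, Dlk1, Grin2a, Hcrtr1, Phox2a and Nhlh2. Dlk1, an imprinted relative of Notch ligands, was at 518 and 500 CPM against 0 and 1.66 (ratio 678, 121 to 26822). Pde11a, a cyclic nucleotide phosphodiesterase, was at 140 and 95.4 CPM with no trigeminal UMI, at least 53.5-fold higher. On the trigeminal side they were Bnc2, Mctp2, Lef1, Plekhd1, Isl1, Scn4b, Prss12, Adgrg2, Pvalb, Hs3st2, Arhgap28, Smpx, Hhatl, Pth1r and Ppp1r1c. Hs3st2, which adds sulfate to heparan chains, was at 360 and 389 CPM against 0 and 1.34 (ratio 646, 115 to 25582), and Prss12, the synaptic protease neurotrypsin, at 125 and 74.8 with no noradrenergic UMI, at least 59.1-fold higher.

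**Figure D5:**
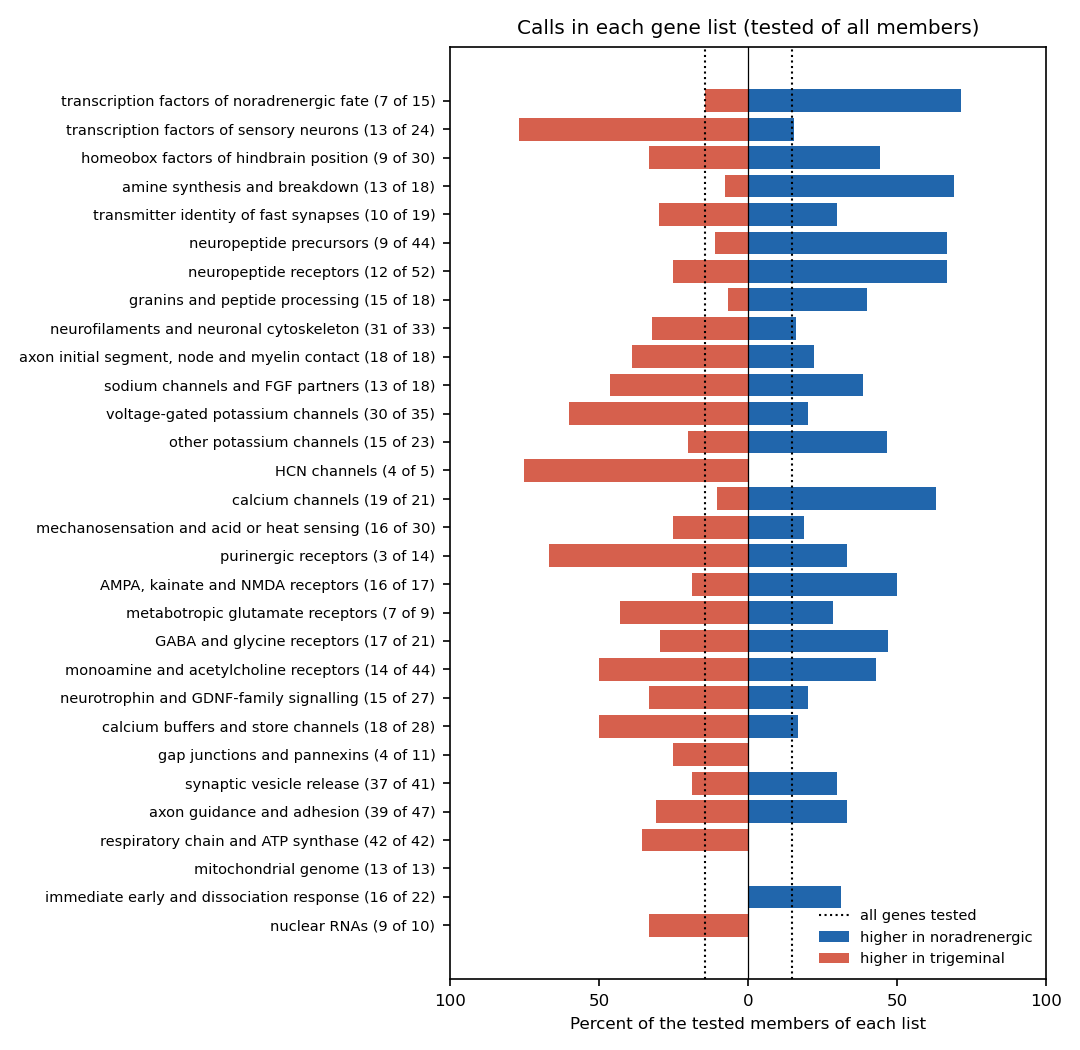
Percent of the tested members of each of 30 gene lists called higher in noradrenergic neurons (blue, to the right) and higher in trigeminal neurons (red, to the left). Dotted lines mark the share among all genes tested, 14.8% and 14.5%, and the labels give tested members of all members. Among lists with 13 or more tested members, amine synthesis and calcium channels reach furthest right, sensory transcription factors and voltage-gated potassium channels furthest left.

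The calls of the genes chosen for naming depended on the test more than on the choice of barcodes. Of 202 such genes that were called, 28 had no UMI on one side, and 25 of those 28 were not called by DESeq2 at its own adjusted p. These include Gal, Phox2a, Calcr, Lmo3, Slc10a4, Gabrq, Hcrtr1, Tacr1, Bnc2, Lef1, Kcns1, Prss12 and Pde11a, whose levels of 0 in both libraries of the other side stand as measured. DESeq2 also did not call Calca, Cartpt, Gabra2, Grin1, Mbp, Whrn and the respiratory chain genes Cox5a, Ndufa4, Ndufb8 and Atp5b, and its likelihood-ratio test did not call Slc17a7, Gfra1, Htr7 or Tacr3. Without the low-count filter, the calls of Chgb, Cpe, Gabbr1, Calca, Cartpt, Cckar, Chrm3, Gabra2, Gabrb2, Gad2, Grin1, Ntrk3, Malat1, Tacr3, Cox4i1, Mbp and Whrn were among the 40 that ended. No named gene changed direction in any of the 14 settings.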

How the data were processed

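The deposited matrices hold counts, whole numbers of UMIs per gene and barcode, made by the authors with Cell Ranger 6.1.2 per the file headers; the submitters' processing notes name Cell Ranger 7.0, Seurat, mm10 and GRCm38. Whether intronic reads were counted is not given in the sources used here. Barcodes were filtered (300 or more detected genes, at most 20% mitochondrial UMIs), gated and summed per side and library. The 4 sums, of 601692 to 987938 UMIs, were tested with edgeR 4.0.16 (R 4.3.3): TMM, filterByExpr, quasi-likelihood fit with library as a block, two-sided, Benjamini-Hochberg over 8525 genes, threshold 0.05. The library is a true block, since both sides came from the same library. Standard errors were derived from the F statistic and share spread across genes, and intervals are 95% by t. The fit leaves 1 residual degree of freedom. Folds of 1 library use CPM on a log2 scale after adding 2 prior counts. No doublets were removed in the main setting, and Scrublet (scanpy 1.11.5) served as an alternative. On simulated data, 45% of 2-fold and 99% of 4-fold changes among 8122 genes were recovered (100 genes each), with 0.05% false calls. Every simulated gene had the same spread (a dispersion of 0.027) and a library effect shared by both sides. The changed genes were drawn from those with higher counts. Folds that differ between libraries were not simulated, so these rates need not hold for the real data.

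Members, gene lists and markers were chosen with earlier results of these data known. Named were the 15 genes highest by fold on each side among those called at 50 CPM or more in both libraries (2 genes with clone names on the trigeminal side were passed over), list members at 10 CPM or more, gate genes as levels, and markers. Genes named below these levels, such as Piezo1, Runx3, Crh and Gad1, were chosen after their values were seen. Some genes that the rule takes in are not reported here. Positions come from GENCODE release 21 for mouse on GRCm38, which held 32158 of 32285 features. RefSeq promoters matched 6721 of the tested genes. Alternatives were DESeq2 1.42.0 with its Wald and likelihood-ratio tests, other gates, filters and scalings, thinning, and leaving out barcodes. The likelihood-ratio test and the removal of barcodes under 3000 UMIs were added after seeing the data. Intervals of the pooled ratios, and floors, cover counting error only.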

Additional observations from a re-analysis of the deposited data

How the results depend on the processing

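The counts of genes called, 1259 higher in noradrenergic and 1235 higher in trigeminal neurons, fell to 519 and 613 with the Wald test of DESeq2, to 491 and 578 with its likelihood-ratio test, to 429 and 489 without the low-count filter (18484 genes tested) and to 387 and 426 with every barcode thinned to 4000 UMIs (2246 genes tested). The cause of these falls was not tested. The fit without the filter took in more genes, and thinning left fewer UMIs and fewer genes. Under the other gates, barcode filters, doublet settings and scalings the counts stayed within 1.5 times. Without TMM they were 1384 and 1186. Leaving out the 23 shallow noradrenergic barcodes gave 1489 and 1425. Without the replicate block they were 1272 and 1248, and no call of the 241 named genes tested changed. Leaving out a library leaves no residual degree of freedom, so folds of single libraries are values with no test. These differed by more than 1.5 times from their mean in 32 of the 202 named genes called. Of the calls of named genes, 44 ended with the Wald test, 48 with the likelihood-ratio test, 40 without the filter and 3 of 154 fitted with thinning (Atp5b, Ndufa4 and Scn2a). Mbp lost its call in 4 settings that leave out barcodes, Gabrb2 at a gate level of 5, and Asic2, Atf3, Hcn3, Npr2 and Sox11 gained one in some. In simulated data with the same spread for all genes, 45% of 2-fold changes were recovered. Changes of that size can thus be missed at this depth.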
